A study of Mus musculus with 8 samples.

Results

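The PI3K-related kinases are a small family of very large proteins, and the mouse genes that encode them are *Atm*, *Atr*, *Prkdc*, *Mtor*, *Smg1* and *Trrap*. These 6 genes were picked by family membership and not by their values, out of 56691 genes in a bulk RNA-seq count table of the cerebellum. All 6 were among the 22423 genes that passed the filter on low counts.

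ATM, ATR and the DNA-PK catalytic subunit, the product of *Prkdc*, are kinases that signal or repair broken and stalled DNA. The mTOR kinase couples nutrients to growth, SMG1 phosphorylates UPF1 in nonsense-mediated mRNA decay, and TRRAP has kept the family fold but not the kinase activity and serves as a scaffold of histone acetyltransferase complexes. Newly made family proteins need the TELO2-TTI1-TTI2 complex and HSP90 to fold. Inherited loss of ATM in people causes ataxia-telangiectasia, in which the cerebellum degenerates, and the mice studied here model that loss.

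The libraries came from 4 *Atm*-WT mice (genotype ATM +/+, mice 2M, 7M, 13M and 32M) and 4 *Atm*-KO mice (genotype ATM -/-, mice 1M, 7F, 11M and 12M), 1 cerebellum per library. All mice were 6 months old, and no treatment is named for them. The *Atm*-KO mice carry the Atmtm1Bal allele on a mixed background, and the study's methods describe crosses of Atm +/- parents with Atm +/+ littermates as controls. The allele is constitutive, so every cell type of an *Atm*-KO mouse carries it. The letter M or F follows the mouse number, and *Xist* was at 910 CPM in 7F and at most 0.163 CPM in the other 7 libraries. Sex was therefore not balanced. Counts were summed over the whole gene, so a transcript with the targeted stretch and one without it cannot be told apart, and the count of *Atm* is no measure of ATM protein.

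Libraries held 76912738 to 88030300 counts in *Atm*-WT, against 65967130 to 78431478 in *Atm*-KO. Levels are given as CPM, the usual scaling of counts by library size, here with TMM factors, and differences as log2 fold changes of *Atm*-KO over *Atm*-WT with a standard error (SE) from edgeR's quasi-likelihood test. A gene was called at a Benjamini-Hochberg adjusted p under 0.05 over all genes tested, which held for 4 of 22423 genes (0.0178%). That count depended on the method, with 1552 genes called by DESeq2, 591 by edgeR without a filter and 1 to 27 with a library left out. The median log2 fold change over all genes tested was -0.02, and 53.1% of them were lower in *Atm*-KO. Of 11 lists of cell type markers, each overlapped between the genotypes in summed CPM. Granule cell markers summed to 5512 to 6636 CPM in *Atm*-WT, against 5805 to 7875 in *Atm*-KO, and Purkinje cell markers to 8494 to 10599 and 8476 to 10069. The median log2 fold change was -0.11 for Purkinje cells (6 of 7 genes lower in value), -0.11 for molecular layer interneurons and Golgi cells (5 of 6) and -0.09 for endothelial cells (3 of 6). In 4 other lists all genes were lower in value in *Atm*-KO, and edgeR called none of these markers. These medians were -0.19 for astrocytes and Bergmann glia, -0.23 for oligodendrocytes, -0.34 for microglia and -0.60 for the choroid plexus. Medians were -0.03 for deep nuclei and brainstem neurons (3 of 5 genes lower) and -0.20 for forebrain neurons (2 of 3 tested genes lower). Red blood cell markers went the other way in value, with 5 of 5 genes higher and a median of 0.61. Granule cell markers did so too, with 5 of 7 higher and a median of 0.06. EdgeR called no gene of these lists. The part of these lists in the results for the family was not tested. In whole tissue, fewer cells of a type and less RNA per cell cannot be told apart.

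Some measures of the libraries did separate the genotypes. TEC genes (transcripts to be experimentally checked) took 0.204% to 0.333% of the counts in *Atm*-WT, against 0.354% to 0.529% in *Atm*-KO. The summed level of 12 RNAs that are kept in the nucleus was 5435 to 10375 CPM in *Atm*-WT, against 10921 to 16639 in *Atm*-KO, lowest in *Atm*-WT 32M and highest in *Atm*-KO 1M and 12M, at 16639 and 16390 CPM. Most of this sum was *Malat1*, which edgeR did not call (adjusted p = 0.149). Its means were 6526 CPM in *Atm*-WT and 10658 in *Atm*-KO, where the sums averaged 8731 and 13903. The part of either measure in the results for the family was not tested.

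*Atm* itself stood lower in every *Atm*-KO cerebellum, at 0.63 of the *Atm*-WT level. The gene lies at chr9:53348097-53448236 on the minus strand (GRCm39). Its level was 67.6, 80.0, 79.4 and 59.0 CPM in *Atm*-WT mice 2M, 7M, 13M and 32M, and 51.1, 44.3, 41.1 and 44.9 CPM in *Atm*-KO mice 1M, 7F, 11M and 12M, from 3036 to 6810 counts per library. Every *Atm*-KO library lay below every *Atm*-WT library, and 1M came closest to 32M. The means were 71.5 ± 10.1 and 45.4 ± 4.16 CPM (SD, n = 4 each), a log2 fold change of -0.66 (SE 0.10, 95% interval -0.88 to -0.43), or a difference of -36.6%.

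The edgeR test gave *Atm* an adjusted p of 0.0775, so the gene was not called, and its unadjusted p of 4.5e-05 ranked 12 among all genes tested. The exact two-sided permutation test over the 8 libraries gave p = 0.0286, the smallest that 4 against 4 can give. *Atm* was the only member whose genotypes did not overlap, where 5.12% of all genes tested had every *Atm*-KO library below every *Atm*-WT library and 6.47% the reverse. DESeq2's Wald test called it with an adjusted p of 2.0e-05 at the same log2 fold change of -0.66, and it called none of the other 5 members, against 7.49% of the 20724 genes to which DESeq2 gave an adjusted p. Of the 8 edgeR fits that leave out a library, only that without *Atm*-WT 32M called *Atm* (-0.74, adjusted p = 0.0315), and the other 7 gave adjusted p from 0.0593 to 0.249. With limma voom the adjusted p was 0.103. No library was without *Atm* counts.

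**Figure D1:**
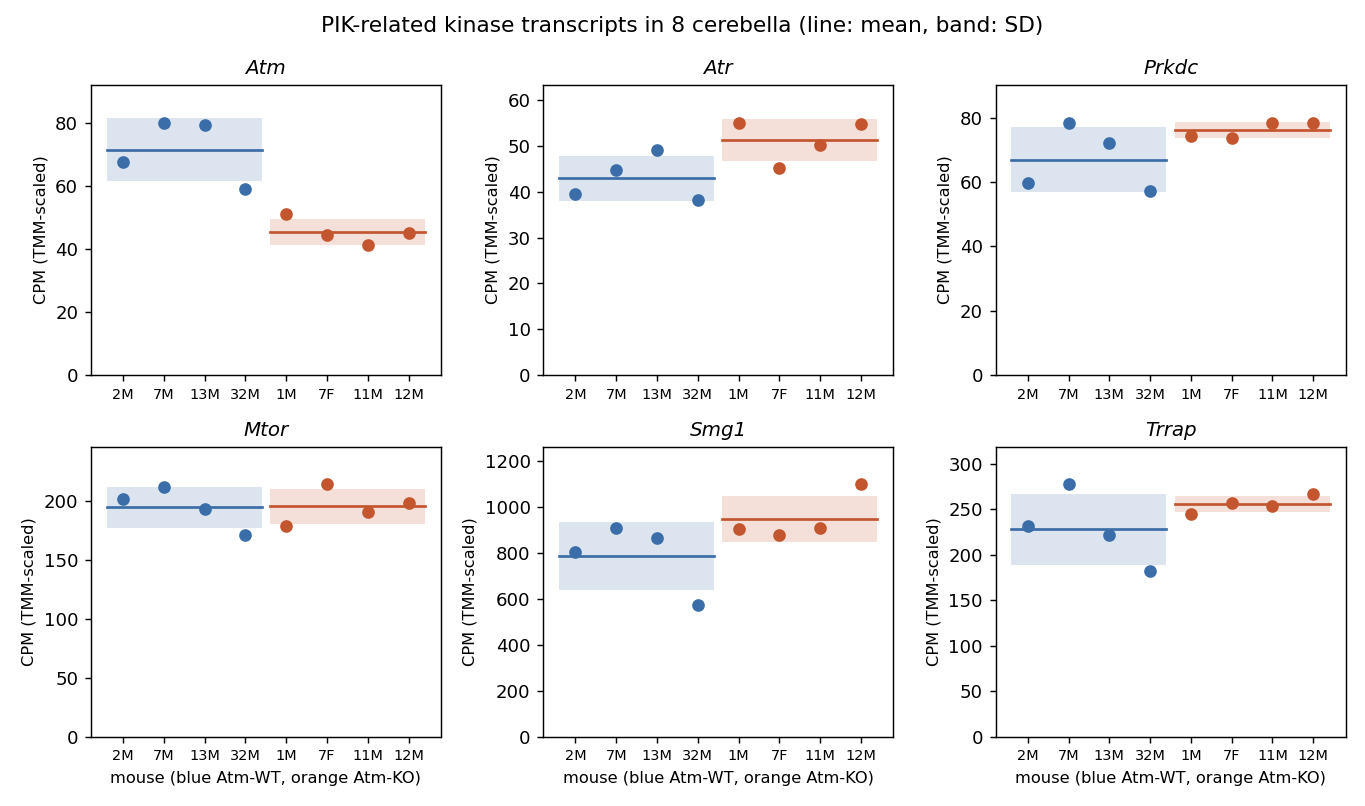
Level of each family member (CPM, axis from 0) in each mouse, *Atm*-WT in blue and *Atm*-KO in orange, with the genotype mean as a line and its SD as a band (n = 4). *Atm* is the only panel in which the colours separate, with all *Atm*-KO points between 41.1 and 51.1 CPM, and the point of *Atm*-WT 32M is the lowest blue point in every panel.

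*Atr* encodes the kinase that answers stalled replication and single-stranded DNA. It lies at chr9:95739650-95835263 on the plus strand, on the same chromosome as *Atm*. Its level was 39.6, 44.7, 49.0 and 38.2 CPM in *Atm*-WT 2M, 7M, 13M and 32M and 55.0, 45.1, 50.2 and 54.8 CPM in *Atm*-KO 1M, 7F, 11M and 12M. The *Atm*-KO libraries 1M, 11M and 12M lay above all *Atm*-WT libraries, and 7F lay below *Atm*-WT 13M. The means of 42.9 ± 4.95 and 51.3 ± 4.68 CPM gave a log2 fold change of 0.26 (SE 0.09, 95% interval 0.05 to 0.46), which edgeR did not call (adjusted p = 0.169, exact permutation p = 0.0571). *Atr* was the only member with an unadjusted p under 0.05 in the upward direction (0.0187), which 11.7% of all genes tested had, and *Atm* the only one in the downward direction, which 8.48% had. With trends of GC content and length removed the value for *Atr* was 0.09.

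*Prkdc*, at chr16:15455698-15660099 on the plus strand, encodes the kinase that joins broken ends together with Ku. *Prkdc* was at 59.8, 78.5, 72.2 and 57.3 CPM in *Atm*-WT 2M, 7M, 13M and 32M and at 74.3, 73.7, 78.3 and 78.3 CPM in *Atm*-KO 1M, 7F, 11M and 12M. The *Atm*-KO values sat close together inside the upper part of the *Atm*-WT range, with 7M the highest library of all. The log2 fold change was 0.19 (SE 0.09, 95% interval -0.02 to 0.39, edgeR adjusted p = 0.298, exact permutation p = 0.171), and the value was 0.12 without *Atm*-WT 32M.

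*Mtor*, at chr4:148533015-148642141 on the plus strand, showed the smallest difference. It was at 201, 212, 193 and 171 CPM in *Atm*-WT 2M, 7M, 13M and 32M and at 178, 214, 190 and 198 CPM in *Atm*-KO 1M, 7F, 11M and 12M. The genotypes covered nearly the same range, and the means were 194 ± 17.2 and 195 ± 14.8 CPM. The log2 fold change was 0.01 with a 95% interval of -0.17 to 0.18 (edgeR adjusted p = 0.971), and its sign changed with the library left out.

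*Smg1*, at chr7:117730527-117842893 on the minus strand, had the most counts of the family. It was at 804, 906, 863 and 572 CPM in *Atm*-WT 2M, 7M, 13M and 32M and at 903, 878, 907 and 1096 CPM in *Atm*-KO 1M, 7F, 11M and 12M. The *Atm*-WT library 32M stood well below and the *Atm*-KO library 12M well above the other 6, which overlapped. The log2 fold change of 0.27 (SE 0.13, 95% interval -0.02 to 0.56) was not called (edgeR adjusted p = 0.283, exact permutation p = 0.0857) and was 0.14 without 32M. These same 2 libraries were the lowest and the second highest in the summed level of nuclear RNAs, and whether the measures are linked was not tested.

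*Trrap*, at chr5:144704542-144796601 on the plus strand, was at 231, 277, 222 and 182 CPM in *Atm*-WT 2M, 7M, 13M and 32M and at 245, 256, 254 and 267 CPM in *Atm*-KO 1M, 7F, 11M and 12M. All 4 *Atm*-KO values lay within the *Atm*-WT range. The log2 fold change was 0.16 (SE 0.11, 95% interval -0.07 to 0.39, edgeR adjusted p = 0.399), and it was 0.07 without *Atm*-WT 32M and 0.27 without *Atm*-WT 7M.

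*Atm*-WT 32M was the lowest *Atm*-WT library in all 6 genes, whereas 31.97% of all genes tested were lowest there among *Atm*-WT. Among *Atm*-KO the lowest library was 7F in 3 members, 1M in 2 and 11M in 1. The spread within a genotype was largest for *Smg1* in *Atm*-WT, with a coefficient of variation of 19.0%, and smallest for *Prkdc* in *Atm*-KO, with 3.25%.

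A ratio of 2 genes within a library is free of the scaling between libraries. The log2 ratio of *Atm* counts to the geometric mean of the other 5 members was -1.19, -1.17, -1.07 and -1.15 in *Atm*-WT 2M, 7M, 13M and 32M, and -1.77, -1.97, -2.10 and -2.08 in *Atm*-KO 1M, 7F, 11M and 12M. On this measure 32M lay in the middle of the *Atm*-WT libraries, which differed by much less than in CPM, and the gap between the genotypes was wide. The means of -1.15 ± 0.05 and -1.98 ± 0.15 (SD, n = 4 each) differed by -0.84, or 0.56-fold.

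Against each of the other members taken singly, *Atm* was also lower in *Atm*-KO with no overlap. The log2 ratio differed between genotypes by -0.91 against *Atr*, -0.85 against *Prkdc*, -0.66 against *Mtor*, -0.93 against *Smg1* and -0.83 against *Trrap*. The exact two-sided permutation test gave p = 0.0286 for each of these 5 ratios, also after Benjamini-Hochberg adjustment over the 5, and all of them share the counts of *Atm*. In *Atm*-WT every library held more counts of *Atm* than of *Atr*, by 1.54 to 1.79 times, and in *Atm*-KO every library held fewer, by a ratio of 0.820 to 0.982.

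The other members kept closer to each other. Against the remaining 4 without *Atm*, the log2 ratio differed between genotypes by 0.09 for *Atr*, 0.01 for *Prkdc*, -0.22 for *Mtor*, 0.12 for *Smg1* and -0.01 for *Trrap*, and the genotypes overlapped in each. *Atm* made up 4.82%, 5.01%, 5.37% and 5.47% of the counts of the family in *Atm*-WT 2M, 7M, 13M and 32M, and 3.39%, 2.93%, 2.71% and 2.58% in *Atm*-KO 1M, 7F, 11M and 12M.

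**Figure D2:**
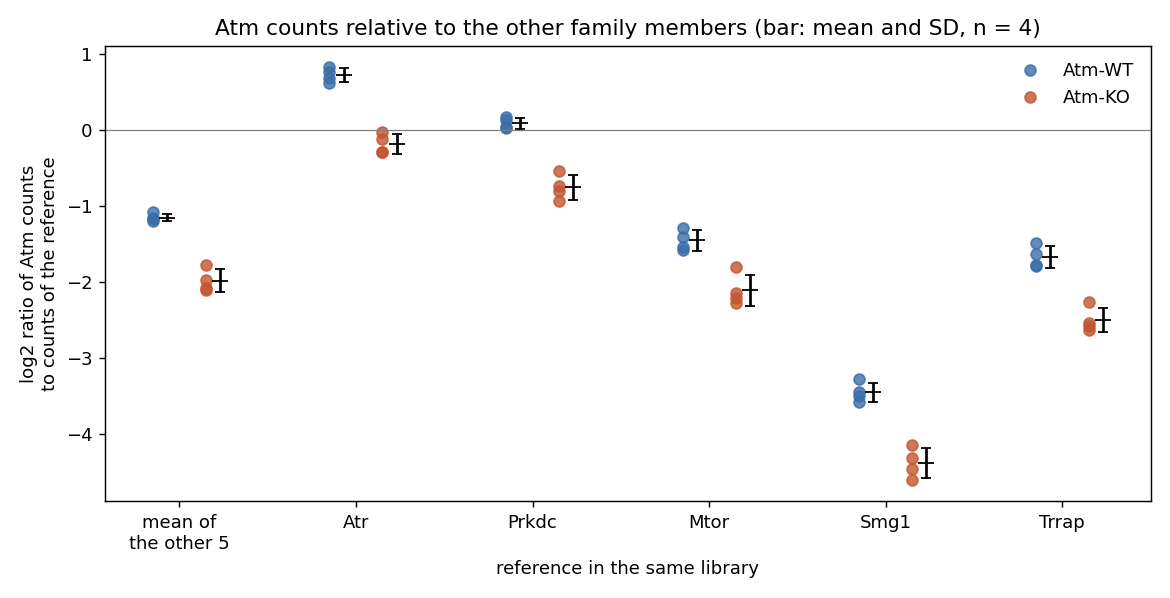
Log2 ratio of *Atm* counts to the geometric mean of the other 5 members and to each of them, in the same library, with the mean and SD of each genotype in black (n = 4). In each column the orange *Atm*-KO points lie below all blue *Atm*-WT points, and against *Atr* and *Prkdc* the ratio passes from above 0 to below it.

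Levels of different genes were compared per kb of exon. With the union of all annotated exons as length, the order was the same in both genotypes. The mean level in *Atm*-WT and *Atm*-KO was 32.8 and 39.4 CPM per kb for *Smg1*, 18.5 and 18.6 for *Mtor*, and 10.9 and 12.2 for *Trrap*. The DNA damage kinases followed, with 5.07 and 5.76 CPM per kb for *Prkdc*, 4.80 and 3.05 for *Atm*, and 1.71 and 2.04 for *Atr*. Each neighbour in this order was higher than the next in 8 of 8 libraries (exact two-sided sign-flip permutation test, p = 0.0078, 0.0098 adjusted over the 5 pairs), except that *Prkdc* was higher than *Atm* in 7 of 8 (p = 0.0156). The pairs and their direction were read from these same levels and not set beforehand, so the p-values describe how steadily the order held over the libraries. The *Atm*-KO libraries carried the order of *Prkdc* over *Atm*, since in *Atm*-WT 2M, 7M, 13M and 32M *Prkdc* was at 4.53, 5.94, 5.46 and 4.34 CPM per kb, and *Atm* at 4.54, 5.37, 5.33 and 3.96.

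The lower end of that order depended on the length used. *Atr* has 17 annotated transcripts whose exons add up to 25.1 kb, while its longest coding transcript has 9.64 kb. With the longest coding transcript as length, *Atm* was at 5.70 CPM per kb in *Atm*-WT and 3.61 in *Atm*-KO, *Prkdc* at 5.29 and 6.02, and *Atr* at 4.45 and 5.32. *Atm* then ranked 4 of 6 in *Atm*-WT and 6 of 6 in *Atm*-KO. On this length *Atm* was above *Atr* in 4 of 4 *Atm*-WT libraries and below it in 4 of 4 *Atm*-KO libraries, so a value over all 8 libraries gives no order for the pair.

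**Figure D3:**
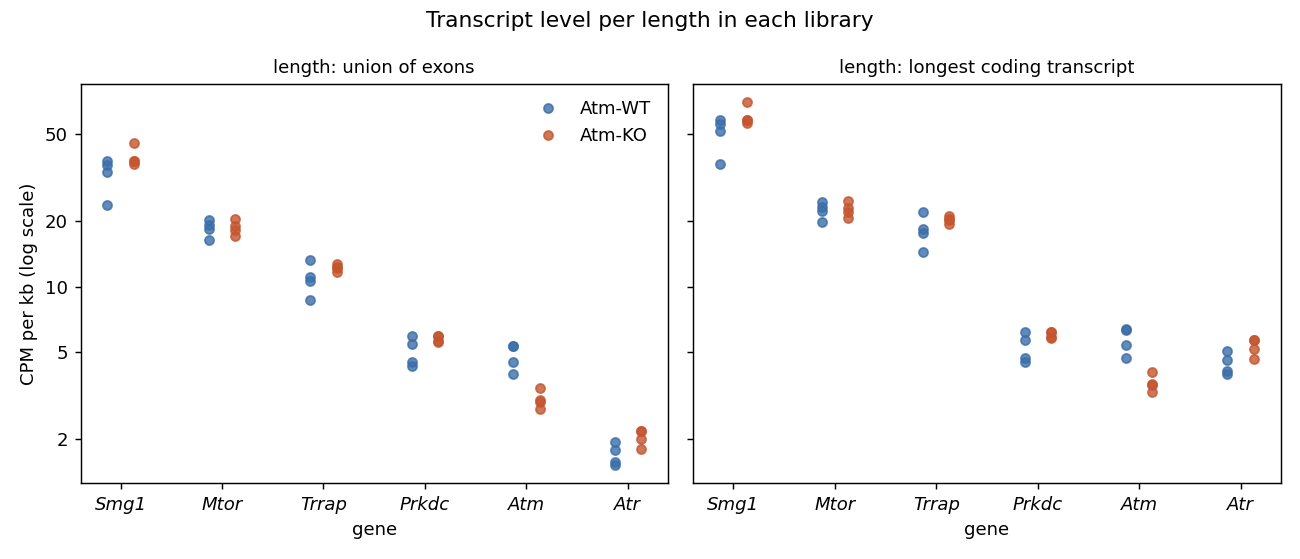
Level per length (CPM per kb, log axis) of the family members in each library, with the union of exons as length on the left and the longest coding transcript on the right, *Atm*-WT in blue and *Atm*-KO in orange. *Smg1*, *Mtor* and *Trrap* stay on top in both panels, and *Atr* moves from 1.71 to 4.45 CPM per kb in *Atm*-WT with the choice of length.

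The gene next to *Atm* is a natural comparison, since *Npat*, a coactivator of histone genes, begins on the other strand 10 bases from *Atm* in GENCODE and 375 bases from its start site in RefSeq, and the pair share a promoter region. *Npat* was at 58.9, 62.8, 66.1 and 56.6 CPM in *Atm*-WT 2M, 7M, 13M and 32M and at 58.3, 58.8, 57.0 and 52.3 CPM in *Atm*-KO 1M, 7F, 11M and 12M. The genotypes overlapped, and the log2 fold change was -0.11 (SE 0.07, 95% interval -0.26 to 0.04, edgeR adjusted p = 0.394), an interval that does not reach that of *Atm*. The promoter of *Atm* was taken as a fixed window of 250 bases before and 50 bases after its RefSeq start site. This window is shown because it also holds part of the window of *Npat*. It covers 300 bases at chr9:53536622-53536921 of GRCm38.p6, a different build from the positions above, and is written on the minus strand, 5′ to 3′, with capitals for the 125 bases that both windows cover.
*Atm* promoter: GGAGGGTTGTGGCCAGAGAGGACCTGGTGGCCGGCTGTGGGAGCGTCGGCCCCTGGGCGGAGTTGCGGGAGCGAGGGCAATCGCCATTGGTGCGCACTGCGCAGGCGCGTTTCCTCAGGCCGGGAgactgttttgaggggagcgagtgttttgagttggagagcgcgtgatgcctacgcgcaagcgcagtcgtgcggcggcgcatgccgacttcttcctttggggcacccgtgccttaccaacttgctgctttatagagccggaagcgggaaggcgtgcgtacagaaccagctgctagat
The capitals hold a CCAAT match and a GGGCGG match, and the lower case part a CCGGAAG match, each searched on both strands. Of 32851 promoter windows in the RefSeq table, 37.4% hold CCAAT, 35.7% GGGCGG and 8.86% CCGGAAG. A match is a description of the letters and not a bound site.

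EdgeR called no gene around the other members. Of the 12 nearest protein-coding genes, 10 overlapped between genotypes, with log2 fold changes from -0.48 for *4930550C14Rik*, the other neighbour of *Atm*, to 0.09 for *Xrn1*, next to *Atr*. The remaining 2 are *Mcm4* and *Arl6ip1*, both with every *Atm*-KO library below every *Atm*-WT library, as were 5.12% of all genes tested, and DESeq2 called 0 of the 12. *Mcm4*, a replicative helicase subunit 433 bases from *Prkdc* and facing away from it, was at 19.9 ± 0.940 CPM in *Atm*-WT and 17.4 ± 0.636 in *Atm*-KO, a log2 fold change of -0.19 (edgeR adjusted p = 0.192) with no overlap, while *Prkdc* stood at 0.19. *Arl6ip1*, 1641 bases from *Smg1*, was at 264 ± 15.6 and 230 ± 10.3 CPM, again with no overlap (-0.20, edgeR adjusted p = 0.141). *Gm16794*, a long non-coding RNA on the strand opposite to *Atr* that shares 518 exonic bases with it, was at 2.32 ± 0.621 and 3.56 ± 0.330 CPM with every *Atm*-KO library above every *Atm*-WT library (0.62, edgeR adjusted p = 0.141). *1700065D16Rik*, also opposite to *Atr* and sharing 726 exonic bases, was at only 0.209 ± 0.101 and 0.0938 ± 0.0408 CPM, a log2 fold change of -1.16 with overlap (edgeR adjusted p = 0.235). *Angptl7*, opposite to *Mtor* within an intron, stood at 0.28 (edgeR adjusted p = 0.762). Since no source used here gives the strand setting, reads of *Atr* and of these transcripts in the shared stretches cannot be told apart. *Gm45084*, a TEC gene inside an intron of *Smg1* and on its strand, was at 1.75 to 4.37 CPM in *Atm*-WT, against 4.05 to 7.90 in *Atm*-KO, lowest in 32M as *Smg1* was.

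Of 18 direct partners of the family, edgeR called none and DESeq2 called 2, *Telo2* and *Smg9*, where it called 7.49% of all genes. *Telo2*, which with *Tti1* and *Tti2* helps newly made family kinases to fold, differed most. It was at 22.9, 23.9, 20.9 and 20.3 CPM in *Atm*-WT 2M, 7M, 13M and 32M and at 32.7, 26.5, 25.6 and 36.2 CPM in *Atm*-KO 1M, 7F, 11M and 12M. Every *Atm*-KO library was above every *Atm*-WT library, 1M and 12M most of all. These were also the libraries with the highest summed level of the listed nuclear RNAs, and whether the measures are linked was not tested. Its log2 fold change was 0.46 (SE 0.11, edgeR adjusted p = 0.0990), and DESeq2 called it with an adjusted p of 0.00967. *Tti1* and *Tti2* stood at -0.06 and 0.05 with overlapping genotypes.

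Partners of the DNA damage kinases showed small differences. *Mre11a*, *Rad50* and *Nbn*, the complex that activates ATM at breaks, had log2 fold changes of 0.13, 0.00 and -0.10. *Atrip*, which carries ATR to single-stranded DNA, was at 19.8 ± 1.99 and 24.1 ± 1.83 CPM, a log2 fold change of 0.29 (SE 0.09, edgeR adjusted p = 0.141, exact permutation p = 0.0571), with *Atm*-KO 7F just under *Atm*-WT 13M, the pair that also overlapped in *Atr*. The Ku genes *Xrcc5* and *Xrcc6*, which recruit DNA-PKcs, stood at -0.13 and 0.16.

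Partners of mTOR, SMG1 and TRRAP spanned log2 fold changes of -0.15 to 0.34. *Rptor*, *Rictor* and *Mlst8*, subunits of the mTOR complexes, had log2 fold changes of 0.04, 0.04 and 0.13. *Upf1*, the SMG1 substrate, stood at 0.06. The regulators of SMG1 differed in sign, with *Smg9* at 15.8 ± 0.499 and 20.1 ± 2.43 CPM (0.34, edgeR adjusted p = 0.115, DESeq2 adjusted p = 0.0304) and *Smg8* at 25.5 ± 0.996 and 23.1 ± 0.804 CPM (-0.15, edgeR adjusted p = 0.260), neither with any overlap between genotypes. *Ep400*, *Kat5* and *Kat2a*, which work in complexes with TRRAP, stood at 0.02, -0.10 and -0.04.

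**Figure D4:**
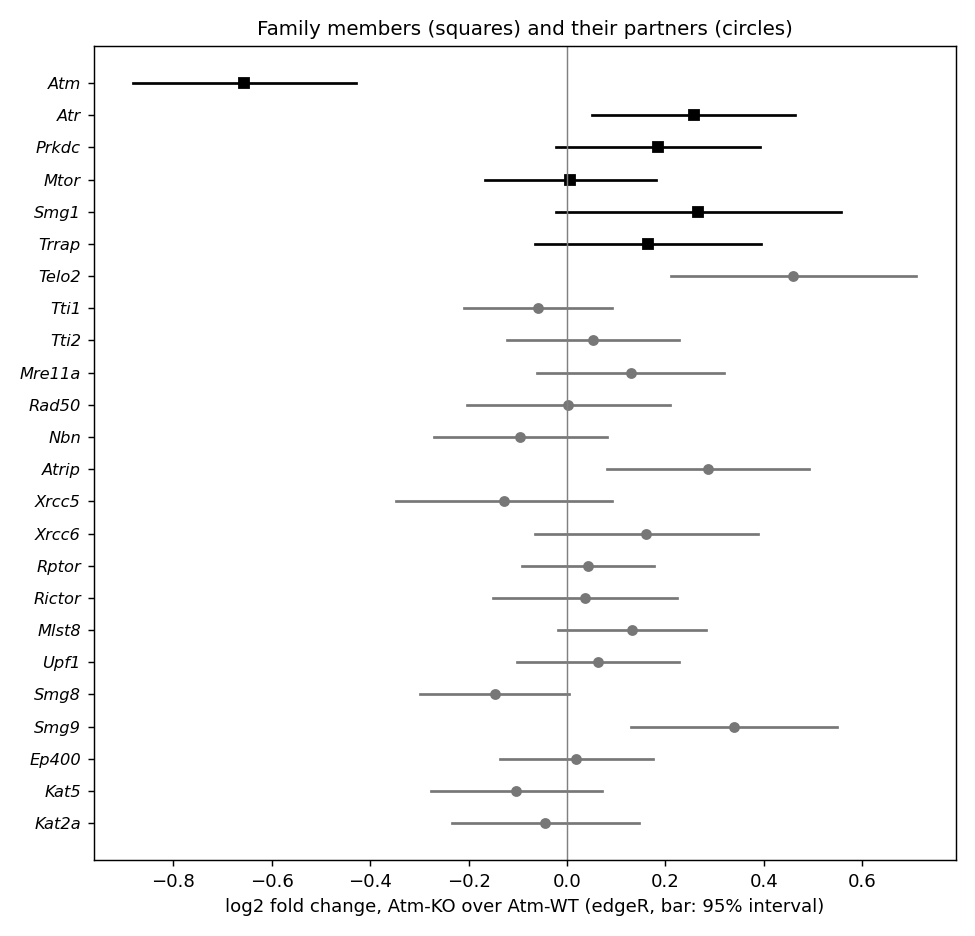
Log2 fold change of *Atm*-KO over *Atm*-WT with its 95% interval from edgeR for the 6 members (squares) and 18 partners (circles). *Atm* at -0.66 lies apart from all other genes drawn, and *Telo2* at 0.46 is farthest on the other side.

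The wider pathways of the family were described with 6 lists, all of whose genes were measured and tested, and edgeR called none of them. The medians, beside -0.02 over all genes, were -0.06 over 9 genes of kinase assembly, -0.02 over 24 sensors and partners of ATM, ATR and DNA-PKcs, -0.09 over 29 genes of the mTOR complexes and their regulators (-0.035 without *Atm*-WT 32M), -0.01 over 17 genes of nonsense-mediated decay, -0.02 over 33 genes of the TRRAP complexes, and 0.00 over 10 phosphoinositide kinase subunits, the closest relatives outside the family. In the mTOR list 21 of 29 genes were lower in *Atm*-KO (72.4%, against 53.1% of all genes tested). An unadjusted edgeR p under 0.05 was reached upward by 1, 3, 1, 3, 2 and 0 genes of these lists in the order given, and downward by 2, 2, 2, 1, 2 and 1. Over the 122 genes this was 8.20% in each direction, against 11.7% of all genes upward and 8.48% downward.

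DESeq2 called 5 of the 121 genes of these lists to which it gave an adjusted p (4.13%, below the 7.49% of all genes), named here after their values were seen. Beside *Telo2* they were *Rnf8*, a ubiquitin ligase that acts after ATM at breaks, at 9.87 ± 0.815 and 14.3 ± 2.49 CPM (DESeq2 adjusted p = 0.00466), and 3 genes of nonsense-mediated decay. Of these, *Smg9* and *Upf3b* were higher in *Atm*-KO and *Rbm8a*, a subunit of the exon junction complex, was lower (47.3 ± 1.54 and 37.8 ± 3.07 CPM, DESeq2 adjusted p = 0.00949). *Upf3b*, which bridges that complex to UPF2, was at 17.6 ± 0.976 and 22.3 ± 2.66 CPM (DESeq2 adjusted p = 0.0330). The list of nuclear RNAs, kept beside these lists as a measure of the libraries, had a median of 0.65 over 12 genes, 8 of them with every *Atm*-KO library above every *Atm*-WT library, against 6.47% of all genes tested. EdgeR called *Neat1* in it, at 52.4 ± 5.45 and 85.1 ± 8.04 CPM (0.70, adjusted p = 0.0371), and did not call it in 4 of the 8 fits that leave out a library, those without *Atm*-WT 2M or 7M or *Atm*-KO 1M or 11M.

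Genes whose profile over the 8 libraries was most like that of a member were found as those with the smallest root mean square difference of centred log2 CPM, among 15733 genes with a mean of at least 1 CPM. For *Atm* they were *Vasn* (0.132), *Tob2* (0.133) and *Fzd4* (0.135). *Fzd4*, a Frizzled receptor, was at 46.8, 49.3, 53.3 and 36.7 CPM in *Atm*-WT 2M, 7M, 13M and 32M and at 30.1, 35.7, 29.6 and 29.3 CPM in *Atm*-KO 1M, 7F, 11M and 12M. It was picked for its likeness to *Atm*, so the genotype gap and low value of 32M that it shares with *Atm* follow from that choice. The nearest genes of the other members were *Tmem161b* for *Atr* (0.0335), *Nbeal1* for *Prkdc* (0.0442), *Atp2b2* for *Mtor* (0.0189), *Zzef1* for *Smg1* (0.0678) and *Phka2* for *Trrap* (0.0458). The difference is not scaled by how much a member varies between libraries, so these values do not rank the members by quality of match. These likenesses are descriptions over 8 libraries.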

How the data were processed

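RNA of cerebellar tissue was extracted with TRIzol and made into libraries by Novogene. The authors checked the reads with FastQC 0.11.9, aligned them with STAR to GRCm39, and deposited raw counts per gene from featureCounts without normalization. Whether pairs or single reads were counted, and the strand setting, are not given in the sources used here, and 67.3% to 73.3% of counts from 1 to 50 were even. Ensembl IDs were matched to GENCODE vM39, which named 56017 of 56691 (98.8%). Counting error is covered by the spread between mice, and nothing states a batch.

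The genotype test was that of edgeR 4.0.16, run under R 4.3.3 (filterByExpr, TMM, glmQLFit, glmQLFTest, no covariate, Benjamini-Hochberg adjustment). Alternatives were DESeq2 1.42.0, limma 3.58.1 voom, RLE factors, library size alone, no filter, at least 10 counts in every library, GC content and length trends removed, 1 surrogate variable from sva 3.50.0, and each library left out. Ratios and levels used exact permutation tests over libraries.

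The members and lists were chosen with earlier results of these data known. Named were the 6 members, 18 partners taken whatever their values, the nearest protein-coding genes, those other than *Npat* that overlapped being summarised, opposite-strand genes, called list genes, and the genes with the most similar profiles (3 for *Atm*, 1 for each other member). *Gm45084* and the list genes called by DESeq2 alone were added after their values were seen. Protein sequences were not used here.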

Additional observations from a re-analysis of the deposited data

Results flagged for a closer look

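In 7 of 142 groups of 4 libraries a single library stood apart by Dixon's test at the 95% level, where about 1 in 20 groups, or 7.1, would by chance. *Smg1* was at 1096 CPM in *Atm*-KO 12M against 878 to 907 in the other *Atm*-KO libraries, and oligodendrocyte markers summed to 1926 CPM in that same library against 3056 to 3287. The log2 ratio of *Smg1* to the other 4 members without *Atm* was 2.65 in *Atm*-WT 32M against 2.92 to 2.97, and *Gm45084*, inside *Smg1*, was at 1.75 CPM there against 4.03 to 4.37. The same log2 ratio for *Prkdc* was -1.71 in *Atm*-WT 2M against -1.51 to -1.49. *Xrcc6* was at 13.7 CPM in *Atm*-KO 11M against 14.89 to 14.96, and *Fzd4* at 35.7 CPM in *Atm*-KO 7F against 29.3 to 30.1.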

How the results depend on the processing

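*Atm* kept its direction under all 16 alternatives. It was called by DESeq2 (-0.66), without a filter (-0.66), with GC and length trends removed (-0.68) and with a surrogate variable (-0.72), and leaving out a library gave -0.74 to -0.59 with edgeR adjusted p from 0.0315 to 0.249. No other member was called under any alternative. *Mtor* turned to -0.019 with the surrogate variable and ranged from -0.051 to 0.047 with a library left out. The surrogate variable also took *Smg1* to 0.11 and *Trrap* to 0.097. *Atm* relative to the other members was -0.91 to -0.80 with a library left out, where 3 against 4 libraries cannot give an exact p under 0.0571. The value also depended on the reference, at -0.66 against the median of the other 5 and -0.88 against *Atr* and *Prkdc* alone. With the longest coding transcript as length, the value over all 8 libraries was 0.32 for the log2 level of *Prkdc* over *Atm*, which no longer passed, and -0.10 for *Atm* over *Atr*. Neither gives an order, since *Atm* was above both in 4 of 4 *Atm*-WT libraries and below both in 4 of 4 *Atm*-KO libraries. DESeq2 called 1 gene of kinase assembly, 1 sensor, 3 of nonsense-mediated decay, 8 nuclear RNAs and 1552 genes in all, and edgeR without a filter called 1, 1, 1, 8 and 591. All-gene calls were 7 with GC and length trends removed, 14 with the surrogate variable and 1 to 27 with a library left out. In the fits with a library left out, 0 to 1 nuclear RNAs were called. Without *Atm*-WT 13M edgeR called 27 genes. The median of the mTOR list was -0.035 without *Atm*-WT 32M, -0.060 without *Atm*-KO 12M and -0.044 with library size alone. No paired analysis was possible because the labels name no litter and state no pairs across genotypes. The number 7 occurs in both genotypes, as *Atm*-WT 7M and *Atm*-KO 7F, and nothing states that these mice are a pair.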
